A study of Mus musculus with 6 samples.

Results

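Rgs genes encode regulators of G protein signalling, and 10 of them are described here: Rgs2, Rgs3, Rgs4, Rgs5 and Rgs16 of the R4 subfamily, Rgs10, Rgs12 and Rgs14 of the R12 subfamily, and Rgs17 and Rgs19 of the RZ subfamily. They were found by matching Ensembl mouse gene IDs to symbols, and they are 10 of the 21 numbered Rgs genes among the 54109 genes listed in the count tables. The 10 were chosen from measured values of the comparison described here, with no stated threshold, so their levels and fold changes stand as a description without a test.

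Messenger RNA was counted in 6 cultures of Msc80, a mouse Schwann cell line grown in DMEM with fetal calf serum and antibiotics. In 3 Sox10ko cultures the gene of the transcription factor Sox10 had been inactivated with CRISPR/Cas9, and the 3 control cultures carried wild-type Sox10. Each Sox10ko culture is labelled as a clone of the line, but whether these were 1 clone or several is not said, so loss of Sox10 and differences between clones cannot be told apart, and nothing in the labels ties a Sox10ko replicate to a control replicate. The libraries held 32328618 to 41529422 reads in Sox10ko and 37473994 to 41834431 in control. Levels are CPM, reads scaled for library size with TMM factors, on which 1 read was worth 0.0235 to 0.0299 CPM. Where genes are compared with each other, CPM were divided by the kilobases of annotated exon. Sox10 itself averaged 88.6 ± 25.1 CPM in Sox10ko and 616 ± 10.5 CPM in control (SD, n = 3 each, log2 fold change -2.80 ± 0.20, edgeR adjusted p = 0.000186). Of 10 Schwann cell markers, Sox10 itself among them, 9 were called lower, where 14.7% of all tested genes were. L1cam was not called (edgeR adjusted p = 0.0769). The summed level of the 10 was 260 to 471 CPM in Sox10ko, against 4950 to 5500 CPM in control. Ngfr alone averaged 16.4 CPM in Sox10ko and 2962 CPM in control.

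G protein-coupled receptors switch on heterotrimeric G proteins by loading GTP onto the alpha subunit. RGS proteins end the signal: their shared RGS domain speeds up the hydrolysis of that GTP. R4 proteins are small and act mostly on Gi and Gq alpha subunits, while Rgs12 and Rgs14 of the R12 subfamily also carry a GoLoco motif that binds inactive Gi alpha subunits. RZ proteins have a cysteine-rich string near their start, and R7 proteins work as a pair with the beta subunit Gnb5. In Schwann cells, receptors that use heterotrimeric G proteins include Adgrg6, which is needed for myelination, and the lysophosphatidic acid receptor Lpar1.

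The starts of 4 genes are shown because the results below turn on them: Rgs16 and its neighbour Rgs8 had the largest falls in the family, Rgs10 was the other abundant gene with a fall, and Rgs3 was the single described gene whose window held a searched motif. Each window runs from 250 bases before to 50 bases after a RefSeq transcript start on GRCm38.p6, 5′ to 3′ on the gene's own strand.
Rgs16, chr1:153740103-153740402, plus strand: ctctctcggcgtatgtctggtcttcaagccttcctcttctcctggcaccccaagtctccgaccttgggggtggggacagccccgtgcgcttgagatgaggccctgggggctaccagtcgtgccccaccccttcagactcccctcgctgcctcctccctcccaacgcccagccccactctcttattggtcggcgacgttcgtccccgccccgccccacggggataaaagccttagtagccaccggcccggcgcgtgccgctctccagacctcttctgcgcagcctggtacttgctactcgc
Rgs8, chr1:153652787-153653086, plus strand: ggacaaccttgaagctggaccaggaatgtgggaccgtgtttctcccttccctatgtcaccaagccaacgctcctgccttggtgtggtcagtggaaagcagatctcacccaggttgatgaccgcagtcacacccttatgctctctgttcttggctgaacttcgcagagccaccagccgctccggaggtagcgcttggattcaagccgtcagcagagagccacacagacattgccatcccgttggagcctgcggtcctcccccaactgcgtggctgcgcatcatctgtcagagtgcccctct
Rgs10, chr7:128418123-128418422, minus strand: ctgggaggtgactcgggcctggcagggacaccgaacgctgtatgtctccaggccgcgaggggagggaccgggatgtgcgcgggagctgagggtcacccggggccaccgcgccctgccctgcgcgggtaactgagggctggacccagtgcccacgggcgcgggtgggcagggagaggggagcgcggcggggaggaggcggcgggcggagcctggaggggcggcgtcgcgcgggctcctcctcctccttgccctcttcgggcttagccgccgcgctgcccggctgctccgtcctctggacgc
Rgs3, chr4:62559597-62559896, plus strand: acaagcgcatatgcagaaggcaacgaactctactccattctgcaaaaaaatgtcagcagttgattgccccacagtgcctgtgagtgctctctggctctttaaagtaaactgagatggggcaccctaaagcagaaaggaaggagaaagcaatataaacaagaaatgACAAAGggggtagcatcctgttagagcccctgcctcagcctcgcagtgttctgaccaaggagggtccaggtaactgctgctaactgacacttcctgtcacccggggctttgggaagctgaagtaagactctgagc
The motifs searched, on both strands, were ACAAAG and ACAATG, the cores of sites bound by SOX proteins, and capitals mark a match. RefSeq windows were found for 9 of the 10 genes, 13 windows in all. Both Rgs3 windows held ACAAAG, the one shown at position -85 and the other at position -241 from the start. The windows of the other 8 genes held no match, and nor did the 3 windows of Rgs8. Over all 32851 promoter windows of the same length, 9394 (28.6%) held at least 1 match. A match is a run of letters and not a bound site, and a missing match says only that these letters are not in this window. Rgs14 had no entry.

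Among the 10 genes, Rgs16, Rgs14 and Rgs10 were lower in every Sox10ko library, by 8.56-fold, 6.35-fold and 2.96-fold, Rgs5 was higher at a level near the floor, and the other 6 overlapped between the groups. 9 of the 10 had enough reads for the fit over all 15427 tested genes, and Rgs4 did not. Of these 9, 4 were called (two-sided quasi-likelihood F test of edgeR, threshold 0.05 on p-values adjusted over all tested genes), against 32.0% of all tested genes. 3 of the 9 were called lower, where 14.7% of all tested genes were, and 1 was called higher, where 17.3% were. Their libraries did not overlap between the groups in 4 of 9 genes, against 49.3% of all tested genes. The rule used this contrast, so nothing is read from these shares. The median log2 fold change was -0.40 over the 9 genes and 0.02 over all tested genes. By subfamily, the described R4 genes held 1 lower and 1 higher call among 4 tested (median log2 fold change 0.40). The R12 genes held 2 lower calls among 3 (-1.56), and the described RZ genes none among 2 (-0.18). Rgs8 of R4 and Rgs20 of RZ, outside the 10 and given below, were called lower (log2 fold changes of -5.37 and -0.92).

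**Figure D1:**
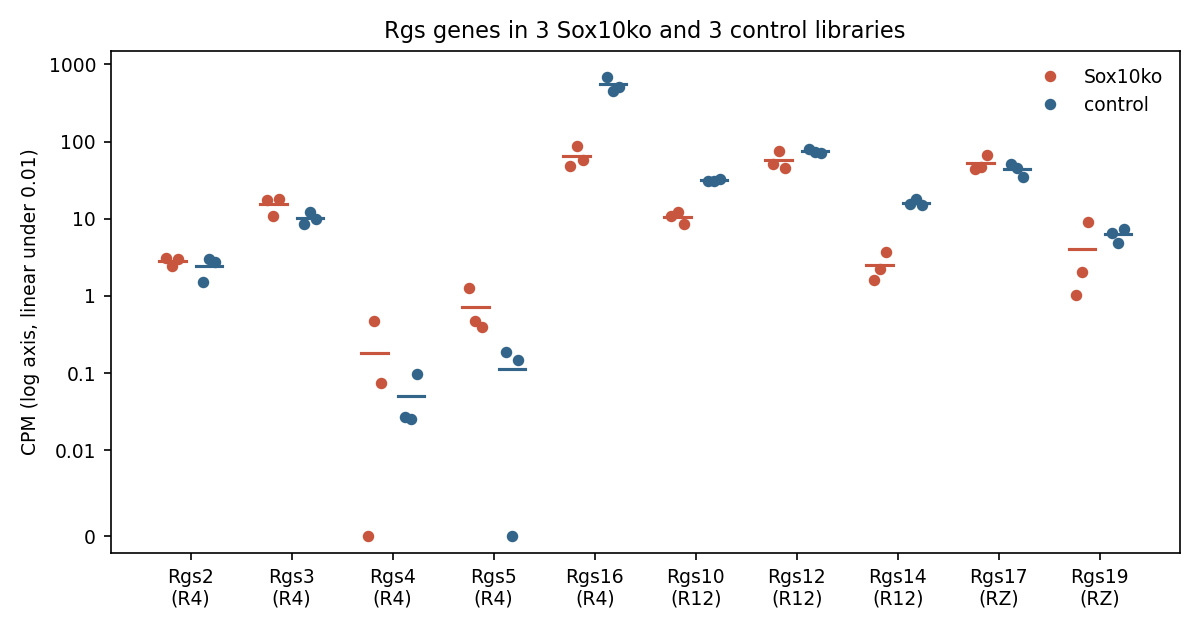
CPM (log axis, linear under 0.01) of the 10 described Rgs genes in 3 Sox10ko libraries (red, left of each pair) and 3 control libraries (blue, right); points are libraries and lines are means. Rgs16, Rgs10 and Rgs14 lay lower in every Sox10ko library, Rgs5 lay higher at levels near or under 1 CPM, and the other genes overlapped.

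Rgs16 was the dominant R4 gene. It encodes a small RGS protein that acts on Gi and Gq alpha subunits, and it lies on the plus strand of chromosome 1 from 153740349 to 153745468 (ENSMUSG00000026475, GRCm38). Replicates 1, 2 and 3 held 47.8, 86.7 and 57.9 CPM of it in Sox10ko, and 685, 457 and 504 CPM in control. The highest Sox10ko library was far under the lowest control library. The means were 64.1 ± 20.2 CPM in Sox10ko and 549 ± 121 CPM in control, so 11.7% of the control level was left (log2 fold change -3.10 ± 0.26, 8.56-fold lower). These values rest on 7618 reads in Sox10ko and 63827 in control. Exons of the antisense gene Gm28513 cover 236 bases of Rgs16, and with the strand setting of the counting not stated their reads cannot be fully separated. Gm28513 held 11 reads in Sox10ko and 159 in control, which does not show how many Rgs16 reads the shared bases affect. In bulk RNA, fewer cells that express a gene and less RNA per cell cannot be told apart.

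Rgs2 and Rgs3 were R4 genes read in every library without a clear difference. Rgs2, which prefers Gq alpha subunits, was read at 3.08, 2.46 and 2.96 CPM in Sox10ko and 1.52, 2.99 and 2.78 CPM in control. All 3 Sox10ko values lay within or just above the control range, and the log2 fold change was 0.22 ± 0.30. Rgs3, a larger gene with several isoforms that also acts on Gi and Gq, was read at 17.3, 10.97 and 17.8 CPM in Sox10ko and 8.61, 12.4 and 9.95 CPM in control. Sox10ko replicates 1 and 3 lay above every control library, and replicate 2 lay inside the control range. The log2 fold change was 0.57 ± 0.23 and not called. Without Sox10ko replicate 2 it was 0.76 and called.

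Rgs4 and Rgs5, neighbours on chromosome 1 with 45.7 kb between them, were close to the floor. Rgs5, a marker of pericytes in many tissues, had 42, 20 and 16 reads in Sox10ko and 7, 0 and 6 in control, which is 1.26, 0.469 and 0.398 CPM in Sox10ko and 0.190, 0 and 0.146 CPM in control. Every Sox10ko library was above every control library, and the pooled ratio was 6.04 with an exact 95% counting interval of 3.33 to 11.8. The log2 fold change of 2.62 ± 0.84 sat at the threshold of the call. It passed the low-count filter through the Sox10ko libraries alone, and none of the 6 fits that left out a library called it (log2 fold changes of 1.93 to 3.17). Rgs4, best known from neurons and heart, had 0, 20 and 3 reads in Sox10ko and 1, 1 and 4 in control. Most of its 23 Sox10ko reads came from replicate 2 alone. The pooled ratio of 3.86 (exact 95% counting interval 1.53 to 11.6) therefore describes that library more than the group.

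Markers of pericytes and smooth muscle are given beside Rgs5. Of 15, 9 were tested, and 4 of these passed the low-count filter in both groups. Called higher were 6 and lower 1, beside 17.3% and 14.7% of all tested genes. The summed level of the 15 was 1070 to 1700 CPM in Sox10ko, against 996 to 1030 CPM in control. Acta2 accounted for 107, 643 and 321 CPM in Sox10ko and 0.0542, 0.230 and 0.146 CPM in control. The other genes called higher were Pdgfrb, Notch3, Myh11, Cnn1 and Des, and Mcam was called lower. Cspg4 and Tagln were tested and not called (edgeR adjusted p of 0.540 and 0.0511). Cspg4 averaged 394 ± 55.4 CPM in Sox10ko and 366.5 ± 10.7 CPM in control, with overlap. Acta2, Notch3, Myh11 and Cnn1 had 17, 9, 22 and 6 reads in control and passed the filter through the Sox10ko libraries alone. Desmin (Des) averaged 18.8 ± 8.46 CPM in Sox10ko and 0.384 ± 0.0533 CPM in control (edgeR adjusted p = 0.000251), and Notch3 had 23, 20 and 151 reads in Sox10ko and 2, 0 and 7 in control (edgeR adjusted p = 0.0248). Among markers with few reads, Abcc9 had 14 reads in Sox10ko and 0 in control, Kcnj8 had 1 read in Sox10ko and 0 in control, Higd1b had 1 read in Sox10ko and 3 in control, and Vtn had 0 reads in every library. The part of such cells in the Rgs5 reads was not tested.

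In the R12 subfamily, Rgs10 and Rgs14 were lower without overlap and Rgs12 overlapped. Rgs10, one of the smallest RGS proteins and abundant in microglia and other leukocytes, was read at 10.9, 12.3 and 8.61 CPM in Sox10ko, against 30.8, 30.7 and 32.5 CPM in control. The control libraries were nearly equal and all lay above the Sox10ko libraries. The means were 10.6 ± 1.85 CPM in Sox10ko and 31.3 ± 1.02 CPM in control, and the log2 fold change was -1.57 ± 0.15. Rgs14, which combines the RGS domain with a GoLoco motif and Ras-binding domains, was read at 1.59, 2.25 and 3.73 CPM in Sox10ko, against 15.4, 17.7 and 15.1 CPM in control. It kept 15.7% of its control level, with no overlap (log2 fold change -2.67 ± 0.31). Rgs12, the largest protein of the subfamily with the same set of domains and a PDZ domain, was read at 50.9, 74.8 and 45.3 CPM in Sox10ko and 80.7, 73.9 and 71.5 CPM in control. Sox10ko replicate 2 lay inside the control range and Sox10ko replicates 1 and 3 lay below it. The log2 fold change of -0.40 ± 0.19 was not called, and without Sox10ko replicate 2 it was -0.66 and called. Exons of the antisense gene Gm43791 cover 467 bases of Rgs12, so its counts are uncertain without the strand setting. Rgs10 and Rgs14 were called lower in all 6 fits that left out a library, with log2 fold changes of -1.70 to -1.44 and of -3.07 to -2.43.

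The leukocyte markers, given because Rgs10, Rgs14 and Rgs19 are known from leukocytes, summed to 11.1 to 65.1 CPM in Sox10ko and 28.5 to 32.0 CPM in control. Of the 10, 4 were tested, and 1 was called higher and 0 lower, beside 17.3% and 14.7% of all tested genes. The called gene was Cd68, a lysosomal protein of macrophages, at 8.22 ± 2.75 CPM in Sox10ko and 2.37 ± 0.653 CPM in control (log2 fold change 1.79 ± 0.33, edgeR adjusted p = 0.00650). Laptm5 was read at 52.4, 0.915 and 10.2 CPM in Sox10ko and 24.7, 22.8 and 22.3 CPM in control, and Csf1r at 1.17, 3.78 and 4.26 CPM in Sox10ko and 4.96, 2.33 and 5.20 CPM in control. Coro1a lay under 1 CPM in every library, with all Sox10ko libraries above all control libraries (edgeR adjusted p = 0.0537). Ptprc had 30 reads in Sox10ko and 3 in control, and Itgam, Cd3e and Tyrobp had 0 reads in every library. The part of leukocyte transcripts in the Rgs10, Rgs14 and Rgs19 reads was not tested.

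The 2 described RZ genes overlapped between the groups, while Rgs20, the third RZ gene given below, was lower in every Sox10ko library. Rgs17, which acts on Gi and Gz alpha subunits, was read at 44.0, 46.5 and 67.4 CPM in Sox10ko and 50.8, 45.3 and 34.8 CPM in control (log2 fold change 0.27 ± 0.20). Rgs19, also known as the G alpha interacting protein GAIP, was read at 1.02, 2.02 and 8.99 CPM in Sox10ko and 6.56, 4.79 and 7.39 CPM in control. Sox10ko replicates 1 and 2 lay below every control library, while replicate 3 lay above every one. The log2 fold change was -0.64 ± 0.71, the widest error among the described genes with a mean above 1 CPM, and without Sox10ko replicate 3 it was -2.04 and called. The Rgs19 value of the Sox10ko group therefore rests on a single library.

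**Figure D2:**
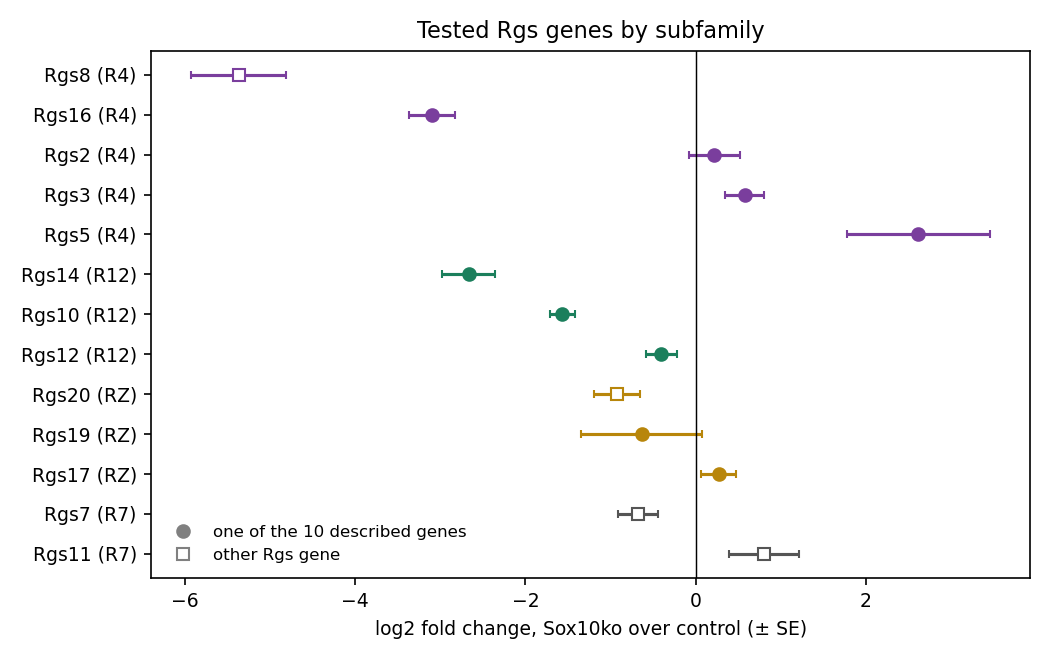
Log2 fold change, Sox10ko over control, of the 13 tested Rgs genes with SE, grouped by subfamily; filled circles are described genes and open squares other Rgs genes. Within R4 the values run from -5.37 for Rgs8 to 2.62 for Rgs5, while the R12 genes all lie below 0.

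The other 11 Rgs genes were mostly silent. Rgs6, Rgs13 and Rgs21 had 0 reads in every library, and Rgs1, Rgs9, Rgs18 and Rgs22 had too few reads to be tested. Rgs8, an R4 gene known from Purkinje cells, averaged 0.588 ± 0.278 CPM in Sox10ko and 24.8 ± 13.1 CPM in control (log2 fold change -5.37 ± 0.56, edgeR adjusted p = 0.000656). Its libraries read 0.269, 0.774 and 0.722 CPM in Sox10ko and 11.9, 38.1 and 24.4 CPM in control, so that the control libraries differed more than 2-fold among themselves and yet all lay far above the Sox10ko libraries. Rgs20, the third RZ gene, averaged 4.16 ± 1.29 CPM in Sox10ko and 7.89 ± 1.10 CPM in control (-0.92 ± 0.27, edgeR adjusted p = 0.0357). Its call was lost without Sox10ko replicate 1 and without each control library in turn (edgeR adjusted p of 0.0637, 0.110, 0.0717 and 0.0805). On the opposite strand, exons of Atp6v1h and Gm17101 cover 127 and 125 bases of Rgs20. The R7 genes Rgs7 (2.40 CPM in Sox10ko and 3.85 CPM in control, edgeR adjusted p = 0.0643) and Rgs11 (1.31 CPM in Sox10ko and 0.749 CPM in control, edgeR adjusted p = 0.176) were not called. The Rgs7 call appeared without control replicate 2 (log2 fold change -0.86, edgeR adjusted p = 0.0432).

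Per kilobase of exon, Rgs16 was the most abundant of the 10 genes in both groups, at 27.4 CPM per kb in Sox10ko and 235 CPM per kb in control. In Sox10ko the next were Rgs12, Rgs17 and Rgs10, at 6.72, 6.34 and 6.19 CPM per kb, and neighbours in that order overlapped over the libraries. Rgs19 and Rgs3 followed at 1.80 and 1.42 CPM per kb and overlapped, then Rgs2 and Rgs14 at 0.782 and 0.595 CPM per kb, which overlapped too, and last Rgs5 and Rgs4 at 0.156 and 0.0585 CPM per kb, again with overlap. In control the order after Rgs16 was Rgs10, Rgs12, Rgs17, Rgs14 and Rgs19, at 18.3, 8.88, 5.26, 3.80 and 2.80 CPM per kb, and no 2 neighbours among these overlapped. Rgs3 and Rgs2 followed at 0.955 and 0.670 CPM per kb with overlapping libraries, and Rgs5 and Rgs4 came last at 0.0246 and 0.0162 CPM per kb. By their means, Rgs10 and Rgs14 thus stood lower in the Sox10ko order than in the control order. Rgs14 lay below Rgs3 and Rgs19 in every Sox10ko library and above both in every control library. For Rgs10 a lower place was not shown library by library. Its Sox10ko values overlapped those of Rgs12 and Rgs17, and in Sox10ko replicate 1 Rgs10 lay above both.

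Summed over all 21 Rgs genes, the family was at 43.4, 64.1 and 52.3 CPM per kb in Sox10ko and at 339, 242 and 261 CPM per kb in control. Without Rgs16 the sum was 25.9 ± 2.49 CPM per kb in Sox10ko and 46.0 ± 0.818 CPM per kb in control (SD, n = 3 each), so the ratio of control to Sox10ko was 1.78, beside 5.27 with Rgs16. The R12 sum was 13.5 ± 2.72 CPM per kb in Sox10ko and 31.0 ± 0.163 CPM per kb in control. The RZ sum, at 9.12 ± 3.24 CPM per kb in Sox10ko and 9.92 ± 1.13 CPM per kb in control, overlapped. The R4 sum was 29.9 ± 8.23 CPM per kb in Sox10ko and 239 ± 49.9 CPM per kb in control. Without Rgs16 it was 2.49 ± 0.402 CPM per kb in Sox10ko and 4.24 ± 1.72 CPM per kb in control. R4 without Rgs16 and Rgs8 summed to 2.43 ± 0.422 CPM per kb in Sox10ko and 1.67 ± 0.371 CPM per kb in control. Both R4 sums without Rgs16 overlapped between the groups. R7 summed to 0.725 ± 0.0706 CPM per kb in Sox10ko and 0.819 ± 0.0559 CPM per kb in control, and overlapped too.

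The make-up of the family differed with these levels. Rgs16 supplied 47.0%, 57.8% and 47.3% of the summed CPM per kb in Sox10ko, against 86.5%, 80.6% and 82.6% in control. Rgs12 made up 12.6% ± 2.06 in Sox10ko and 3.21% ± 0.395 in control, Rgs17 12.2% ± 3.40 in Sox10ko and 1.89% ± 0.329 in control, and Rgs10 11.8% ± 2.56 in Sox10ko and 6.67% ± 1.17 in control. The share of Rgs10 was thus higher in Sox10ko while its level was lower.

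**Figure D3:**
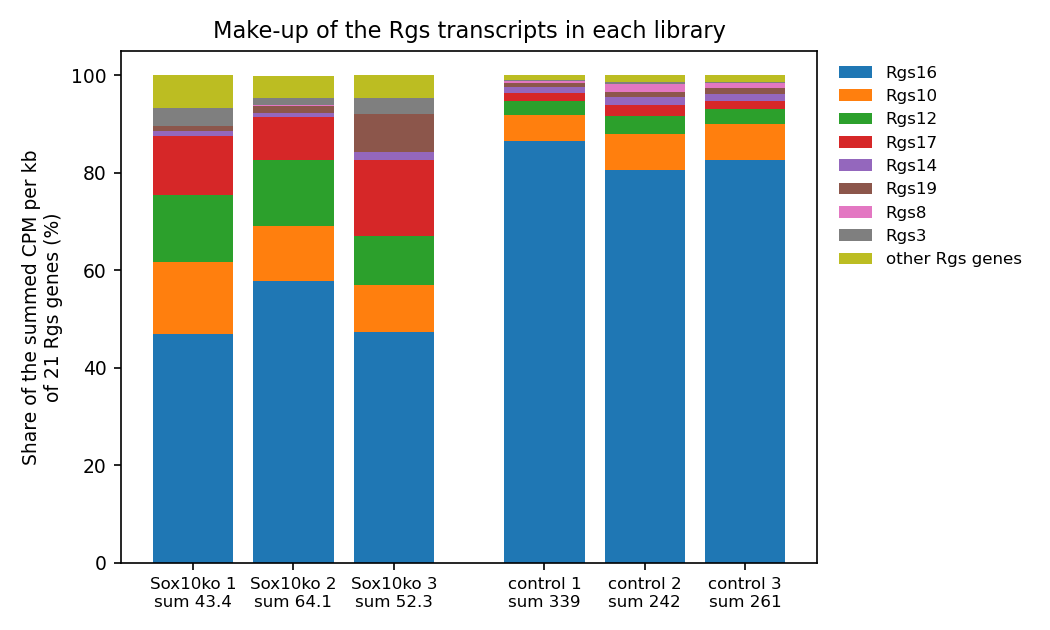
Share (%) of each Rgs gene in the summed CPM per kb of 21 Rgs genes, 1 bar per library, Sox10ko left and control right, with the sum in CPM per kb under each bar. Rgs16 takes 47.0% to 57.8% of the Sox10ko bars and 80.6% to 86.5% of the control bars.

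Rgs16 and Rgs8 lie 40.0 kb apart, and the genes around them were read because both fell; the window of 500 kb to each side of the Rgs16 start was chosen after the values had been seen, and its counts get no test. Of 30 annotated genes analysed there, 12 were tested, and 7 were called lower and 0 higher (14.7% and 17.3% of all tested genes), with Rgs16 and Rgs8 among the 7. A stretch of 256.7 kb with 14 genes analysed runs from the start of Rgs8 (153653025) to the end of Glul (153909723). Its ends were set at genes called lower, after the values had been seen, so nothing is read from its counts. In it 6 of 7 tested genes were called lower, and each of these 6 was also called in all 6 fits that left out a library. Among them, Gm28513 and Gm29529 share 236 and 70 exonic bases with Rgs16 and Rgs8, so their reads cannot be fully separated.

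Glul, the glutamine synthetase gene at the far end of the stretch, averaged 76.7 ± 8.86 CPM in Sox10ko and 154 ± 24.8 CPM in control (-1.01 ± 0.15, edgeR adjusted p = 0.00242). The other called genes of the stretch are of low level and unknown role. C230024C17Rik had 18 reads in Sox10ko and 367 in control (-4.34 ± 0.57, edgeR adjusted p = 0.00162), and Gm28513 had 11 reads in Sox10ko and 159 in control (-3.80 ± 0.36, edgeR adjusted p = 0.000440). Gm29529, antisense to Rgs8 with 70 shared exonic bases, had 0 reads in Sox10ko and 55 in control, at least 18.2-fold lower against a floor of 3 reads over the group. Gm28512 of the stretch was tested and not called, with 0.223 ± 0.116 CPM in Sox10ko and 0.411 ± 0.0227 CPM in control (edgeR adjusted p = 0.193). Outside the stretch 1 of 5 tested genes was called, the helicase gene Dhx9 (-0.45 ± 0.10, edgeR adjusted p = 0.0139).

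**Figure D4:**
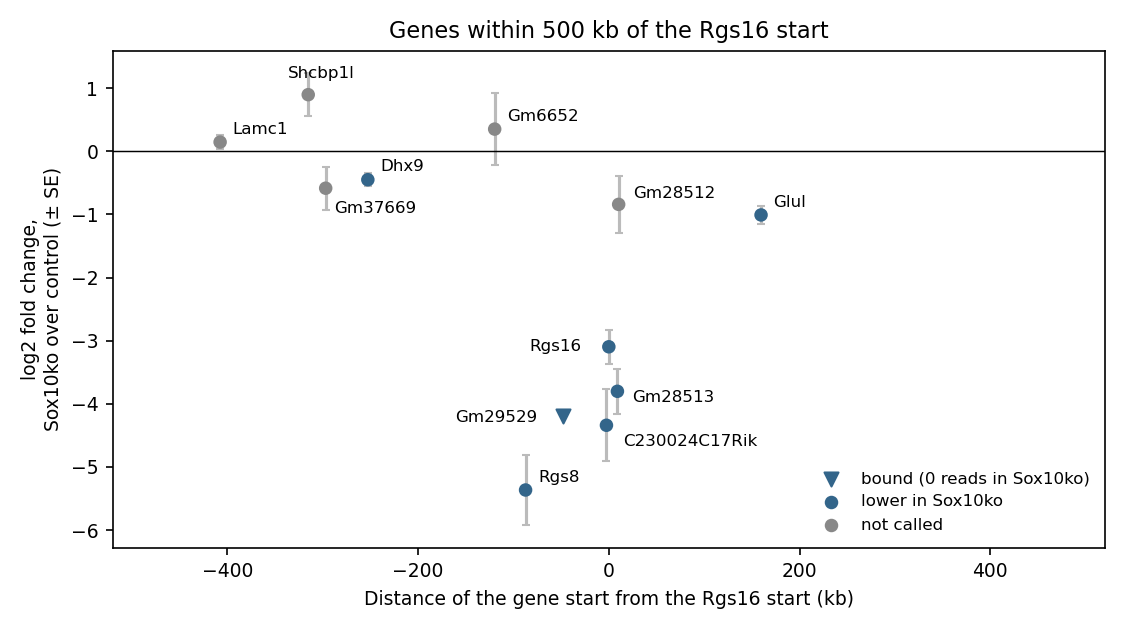
Log2 fold change with SE, Sox10ko over control, of the 12 genes analysed and tested within 500 kb of the Rgs16 start, against the distance of each gene's start from it in kb; blue points were called lower and grey ones not called. The triangle marks Gm29529 at its bound of 18.2-fold, and the lowest points lie at or close to Rgs8 and Rgs16.

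By likeness of profile, the 3 genes nearest to Rgs16 among the 10228 genes averaging 5 CPM or more were Ephb2, Slc35f1 and Greb1, at distances of 0.672, 0.688 and 0.740. The distance is Euclidean over log2 CPM of the 6 libraries, each gene centred on its control mean. Ephb2 averaged 2.36 CPM in Sox10ko and 20.5 CPM in control. Among the described genes at that level, Rgs3 had the largest positive fold change. Its nearest genes were Bcl2l11, Tfeb and Grina, at 0.175, 0.259 and 0.271. Both members and their nearest genes share the same 6 libraries, and no test belongs to these distances.

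The partners of RGS proteins were taken from lists of textbook genes: receptors, G protein subunits, effectors, receptor kinases and other RGS-domain proteins, arrestins, modulators and R7 partners. Of 127 genes 75 were tested, of which 14 were called higher and 27 lower. The 41 calls are 54.7% of the tested genes, beside 32.0% over all genes, and the median log2 fold change was -0.22, beside 0.02. In 64 of the 75 the filter was passed in both groups. Without control replicate 3 there were 25 calls, beside 2869 over all genes. Exons of several named genes overlap a gene on the opposite strand, so their counts are uncertain without the strand setting. Among them are Gnas (1469 bases with Gm20721 and 988 with Nespas), Adcy6, Plcb1, Gpsm1, Gng2, Gngt2, Gna13, Gnb5, Ptger4 and Arhgef12. Gpsm3 shares 227 exonic bases with Pbx2 on the same strand, which no strand setting would separate.

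Of the alpha subunits, on which the RGS domain acts, 10 were tested, and 1 was called higher and 3 lower. These are 40.0% of those tested, beside 32.0% over all genes, and the median log2 fold change was -0.11, beside 0.02. Gnai2, the most abundant Gi subunit, averaged 305 ± 12.9 CPM in Sox10ko and 349 ± 20.1 CPM in control (edgeR adjusted p = 0.151). Gnai3 was at 165 ± 6.29 CPM in Sox10ko and 202 ± 4.90 CPM in control (-0.29 ± 0.08, edgeR adjusted p = 0.0370), and Gnaq at 152 ± 18.5 CPM in Sox10ko and 207 ± 14.5 CPM in control (-0.45 ± 0.12, edgeR adjusted p = 0.0256). Gna13 fell by 0.47 ± 0.12 on the log2 scale (edgeR adjusted p = 0.0208), and the transducin subunit Gnat2, near 1 CPM, was higher by 1.39 ± 0.41 (edgeR adjusted p = 0.0366). None of these 4 calls was kept in every fit that left out a library. Gnai3 was called without Sox10ko replicate 2 and in none of the other 5 fits that left out a library (edgeR adjusted p up to 0.111). Gnaq lost its call without control replicate 1 or 3 (0.0760 and 0.0593), Gna13 without Sox10ko replicate 2 or control replicate 2 or 3 (0.0501, 0.0613 and 0.0712), and Gnat2 without Sox10ko replicate 1 or 2 or control replicate 1 or 3 (up to 0.138). Gna11, Gnas and Gna12, the most abundant of their lists per kilobase in control, were not called (edgeR adjusted p of 0.874, 0.985 and 0.266).

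Among beta and gamma subunits, which are freed when the alpha subunit is active, 5 of 11 tested were lower and 1 higher. That is 54.5% of those tested, beside 32.0% over all genes. Gng11 averaged 36.6 ± 1.21 CPM in Sox10ko and 58.1 ± 4.12 CPM in control (-0.67 ± 0.10, edgeR adjusted p = 0.00228), Gng2 fell by 0.95 ± 0.19 on the log2 scale (edgeR adjusted p = 0.00843) and Gnb4 fell by 0.83 ± 0.19 (edgeR adjusted p = 0.0137). The most abundant, Gnb1, was at 529 ± 30.7 CPM in Sox10ko and 704 ± 27.8 CPM in control (edgeR adjusted p = 0.0150, and 0.0631 without control replicate 3). Gngt2 was higher, at 2.93, 2.28 and 10.4 CPM in Sox10ko and 0.515, 0.179 and 0.561 CPM in control (edgeR adjusted p = 0.00894), and passed the filter through the Sox10ko libraries alone.

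The effectors split. Plcb4, a phospholipase C driven by Gq, averaged 45.4 ± 17.2 CPM in Sox10ko and 4.37 ± 0.213 CPM in control (3.38 ± 0.28, edgeR adjusted p = 0.000281). Its relative Plcb1 averaged 14.6 ± 3.61 CPM in Sox10ko and 30.5 ± 3.71 CPM in control (-1.06 ± 0.20, edgeR adjusted p = 0.00656), and Plcb3, the most abundant per kilobase, was not called (edgeR adjusted p = 0.0899, and 0.0252 without Sox10ko replicate 3). Adcy5, an adenylyl cyclase inhibited by Gi, averaged 10.0 ± 3.45 CPM in Sox10ko and 49.2 ± 6.76 CPM in control (-2.30 ± 0.27, edgeR adjusted p = 0.00108). Adcy6, its closest relative, averaged 129 ± 11.4 CPM in Sox10ko and 84.2 ± 6.17 CPM in control (0.61 ± 0.11, edgeR adjusted p = 0.00498). In total 2 of 9 tested effectors were higher and 2 lower (44.4% called, beside 32.0% over all genes).

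Of 38 receptors 16 were tested, and 7 were called higher and 5 lower. These calls are 75.0% of those tested, beside 32.0% over all genes, and 9 of the 16 passed the filter in both groups. Calcrl, the calcitonin receptor-like receptor, averaged 8.60 ± 1.33 CPM in Sox10ko and 1.69 ± 0.589 CPM in control (2.34 ± 0.30, edgeR adjusted p = 0.00154). Ptger4, a Gs-coupled prostaglandin E2 receptor, had 1032 reads in Sox10ko and 29 in control (edgeR adjusted p = 0.000728), and the thrombin receptor F2r had 553 reads in Sox10ko and 3 in control, a ratio of 186 with an exact 95% counting interval of 63.2 to 903 (edgeR adjusted p = 0.000959). Gabbr2, a GABA-B receptor subunit, had 155 reads in Sox10ko and 8 in control (edgeR adjusted p = 0.00160). These last 3 passed the filter through the Sox10ko libraries alone. The sphingosine 1-phosphate receptor S1pr2 averaged 30.9 ± 4.73 CPM in Sox10ko and 67.7 ± 9.34 CPM in control (-1.13 ± 0.15, edgeR adjusted p = 0.00178). Lpar1, the most abundant receptor of the list per kilobase, was at 92.9 ± 1.17 CPM in Sox10ko and 106 ± 10.8 CPM in control and was not called (edgeR adjusted p = 0.197).

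**Figure D5:**
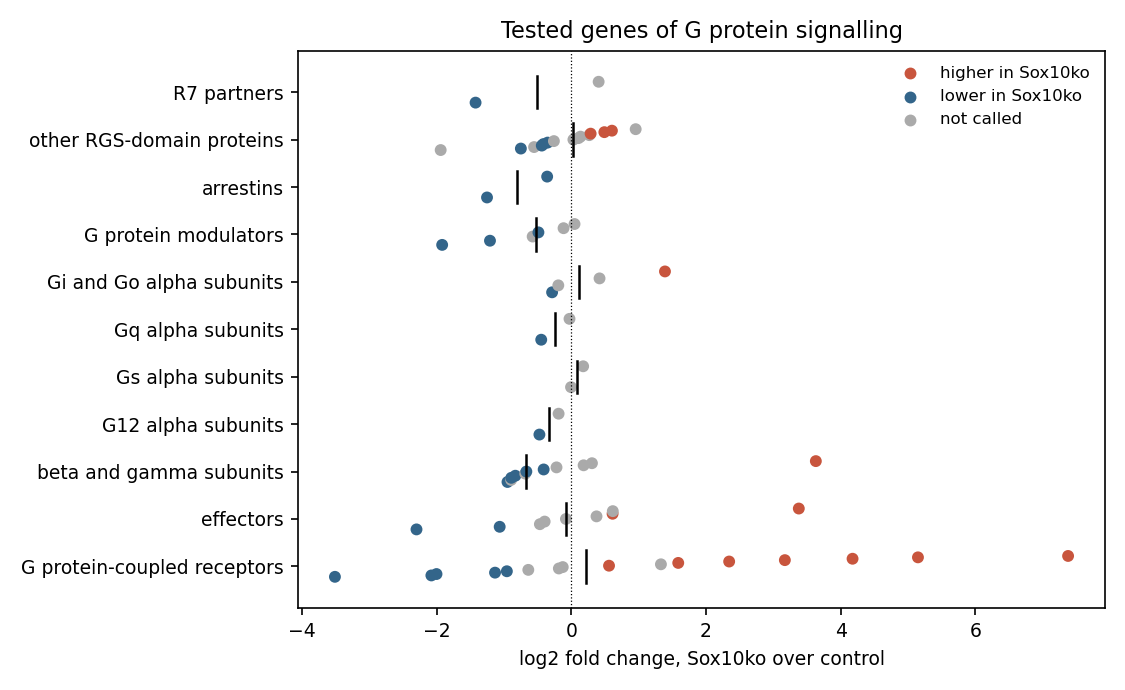
Log2 fold change, Sox10ko over control, of 75 tested genes of G protein signalling by list; red points were called higher, blue ones lower, grey ones not called, and the black bar is each list's median. The rightmost point, F2r, rests on 3 control reads; the medians of the alpha subunit lists lie between -0.33 and 0.11.

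Other proteins that end or shape G protein signals were mixed. Both arrestins were called lower, where 14.7% of all tested genes were. Arrb1 averaged 43.2 ± 15.2 CPM in Sox10ko and 103 ± 12.6 CPM in control (-1.25 ± 0.24, edgeR adjusted p = 0.00805). Arrb2 (-0.36 ± 0.11, edgeR adjusted p = 0.0408) lost its call in each of the 6 fits that left out a library (0.0616 to 0.140). Gpsm1, a GoLoco protein like Rgs14, averaged 11.97 ± 0.432 CPM in Sox10ko and 27.6 ± 1.59 CPM in control (-1.21 ± 0.11, edgeR adjusted p = 0.000392). It was 1 of 3 modulators of 6 tested that were called lower, with 0 higher, beside 14.7% and 17.3% of all tested genes. Gpsm3, near 1 CPM, and Ric8b, a chaperone of alpha subunits, were the others (edgeR adjusted p of 0.0198 and 0.0184), and each kept its call in 3 of the 6 fits that left out a library. Gpsm3 lost it without Sox10ko replicate 1 or control replicate 1 or 2 (0.0508, 0.0608 and 0.0643), and Ric8b without Sox10ko replicate 2 or control replicate 2 or 3 (0.0505, 0.0583 and 0.0647). Of the 15 other RGS-domain proteins, all tested, 3 were called higher and 4 lower (46.7% called, beside 32.0% over all genes). The receptor kinase Grk5 averaged 15.1 ± 1.45 CPM in Sox10ko and 25.4 ± 3.17 CPM in control (edgeR adjusted p = 0.00710), and Arhgef12 216 ± 5.89 CPM in Sox10ko and 288 ± 6.75 CPM in control (edgeR adjusted p = 0.00907). The calls of Grk2 (-0.35 ± 0.09, edgeR adjusted p = 0.0209), Grk4 (0.60 ± 0.15, 0.0185) and Snx25 (0.49 ± 0.15, 0.0422) were kept in 4, 2 and 1 of those 6 fits. Grk2 lost its call without control replicate 2 or 3 (0.0540 and 0.0686), Grk4 without Sox10ko replicate 2 or any control library (0.0508 to 0.0763), and Snx25 in every such fit except that without control replicate 2 (0.0691 to 0.155). Of the R7 partners, Rgs9bp was lower (-1.42 ± 0.30, edgeR adjusted p = 0.0105) and Gnb5 was not called (0.41 ± 0.14, edgeR adjusted p = 0.0616).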

How the data were processed

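The deposited files are raw read counts per Ensembl gene, 1 table per library. Per the labels' protocols, total RNA (RNeasy) went into stranded mRNA libraries (TruSeq). The submitters' processing notes name STAR 2.6.0c, HTSeq, DESeq2 and the mouse build mm10 (GRCm38). What each tool did, which annotation was used and how strand was set is not given in the sources here. Reads are not unique molecules, so counting intervals cover counting error only, and p-values measure only the spread between these libraries.

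Symbols and coordinates came from GENCODE M21 (GRCm38) and matched 54042 of 54109 IDs. Counts were filtered with filterByExpr, scaled with TMM and tested with the two-sided quasi-likelihood F test of edgeR 4.0.16 (R 4.3.3) on all 6 libraries without a covariate. The threshold was a Benjamini-Hochberg adjusted p of 0.05 over 15427 genes, and the test was checked on simulated data. The SE is the log2 fold change divided by the root of the F statistic. Replicates of a group differed by more than sampling noise in every pair (chi-square per degree of freedom of 78.8 to 91.1 in Sox10ko and 27.7 to 60.3 in control). In all, 4939 genes were called, 2664 higher and 2275 lower in Sox10ko, and 6684 had an unadjusted p under 0.05. Neuron markers summed to 54.5 to 72.3 CPM in Sox10ko and 89.1 to 100.0 CPM in control, and endothelial markers to 0.389 to 0.797 CPM in Sox10ko and 2.20 to 2.38 CPM in control.

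The Rgs genes, the lists and the alternatives were chosen with earlier results of these data known. Besides the Rgs genes and Sox10, each list gave up to 4 called genes with the lowest adjusted p, up to 1 called against most, and its most abundant gene per kilobase in control. The Rgs16 neighbours and individual markers were added after their values were seen, and 1 gene is not reported here. As alternatives, scaling used the size factors of DESeq2 or library size alone, the filter was dropped or set at a mean of 5 CPM, DESeq2 1.42.0 or limma-voom (limma 3.58.1) replaced the test, a replicate block was added, and each library was left out in turn.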

Additional observations from a re-analysis of the deposited data

How the results depend on the processing

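Over 13 alternatives, 3 to 5 of the described Rgs genes were called (4 as reported), and Rgs16, Rgs10 and Rgs14 were called lower in each alternative. Rgs5 was called with library size alone, without the filter and in DESeq2, and not with DESeq2 size factors, limma-voom or the replicate block, and it was left out at a mean of at least 5 CPM. Over all genes the other tools, scalings and filters called 3375 to 5690, and leaving out a library gave 2869 (without control replicate 3) to 4681. The replicate numbers did not pair the samples (correlations of same-numbered deviations of -0.202, -0.0995 and 0.0681). With the number as a replicate block 3537 genes were called in all, 3 of the described Rgs genes, and 27 of the pathway genes against 41 as reported; Rgs20 (edgeR adjusted p = 0.0505) and Dhx9 (0.0533) lost their calls. Leaving out a library gave 25 (without control replicate 3) to 41 pathway calls. The signs of Gna11 and Gnas, both close to 0, turned: Gna11 had a log2 fold change of 0.0306 with library size alone and 0.0198 at a mean of at least 5 CPM, and -0.108 to 0.0345 when a library was left out. Gnas had 0.0508 and 0.0422 under those settings, 0.00821 with limma-voom and 0.00713 with the replicate block, and -0.15 to 0.0493 when a library was left out. The cause was not tested. At under 1 CPM, as for Rgs4 and Rgs5, depth limits what can be compared.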
